A study of Mus musculus with 11 samples.

Results

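The Rag GTPases Rraga, Rragb, Rragc and Rragd, the folliculin complex genes Flcn, Fnip1 and Fnip2, the Ragulator gene Lamtor1 and the MiT/TFE transcription factor genes Tfeb and Tfe3 were followed by name in the transcriptome of mouse polymorphonuclear neutrophils (PMNs). All 10 were listed among the 54164 genes of the deposited table, and 9 of them, all but Rragb, had a mean of 1 or more in TPM, a level scaled by transcript length and by the library's total, as did 12195 genes overall. The set was chosen with the genotype comparison of these libraries in view. Rragd had one of the smallest p-values in that comparison and was selected on it, and the other 9 genes were selected by their role in the same pathway. Differences between genotypes are therefore given for all 10 genes as a description, with no test.

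PMNs of 6 FOXO3 knock-out (FOXO3 KO) and 5 wild type (WT) mice were sequenced as paired-end libraries of total RNA, 1 per mouse. Both groups were C57BL/6, male and female, 6 to 8 weeks old, homozygous for their Foxo3 genotype and kept on chow. All mice had received 2 intraperitoneal injections of 1 mL casein, a sterile irritant that draws PMNs into the abdominal cavity, and cells were collected 3 h after the second injection and enriched on a density gradient to a stated purity of over 90% by Ly6G staining. The knock-out is described for the mouse as a whole and not for PMNs alone, and the deleted stretch of Foxo3 is not given in the sources used here. Foxo3, the transcription factor gene that was deleted (chromosome 10 of GRCm38, 42181841 to 42276755, minus strand), had 1.68, 2.18, 2.00, 3.68, 4.27 and 0.844 TPM in FOXO3 KO libraries 1, 2, 3, 05, 06 and 09, against 10.3, 7.61, 9.30, 11.7 and 7.63 TPM in WT libraries 1, 2, 3, 03 and 08. Every FOXO3 KO library lay below every WT library, and all were above 0.

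On the lysosomal surface the Rag GTPases work as pairs, RagA or RagB with RagC or RagD. The pairs are tethered by Ragulator, which Lamtor1 anchors in the membrane, and when amino acids are plentiful they recruit mTORC1, the kinase complex that drives growth. Folliculin with Fnip1 or Fnip2 acts on RagC and RagD and lets mTORC1 reach Tfeb and Tfe3, which are then held in the cytosol. When nutrients are scarce Tfeb and Tfe3 enter the nucleus and switch on lysosomal and autophagy genes through a short E-box, and Rragd, Flcn and Fnip2 are known targets of these factors in several cell types. Foxo3 also belongs to the nutrient response, since insulin and growth factor signals keep it out of the nucleus.

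Sequence upstream of 4 of the genes is shown because Rragd carried the largest genotype difference and because Rragc, Fnip1 and Lamtor1 hold the E-box that MiT/TFE factors bind. The sequences are from RefSeq on GRCm38.p6, 5′ to 3′ on the gene's strand, and capitals mark the E-box CACGTG.
Rragd, chr4:32982848-32982997, plus strand, the 150 bases before the start site: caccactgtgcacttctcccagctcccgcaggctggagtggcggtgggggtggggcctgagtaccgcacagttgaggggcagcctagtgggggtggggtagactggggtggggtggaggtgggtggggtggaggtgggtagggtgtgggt
Rragc, chr4:123917294-123917353, plus strand: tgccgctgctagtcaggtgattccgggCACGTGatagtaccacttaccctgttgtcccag
Fnip1, chr11:54438077-54438136, plus strand: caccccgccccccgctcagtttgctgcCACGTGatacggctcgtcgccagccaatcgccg
Lamtor1, chr7:101905742-101905801, plus strand: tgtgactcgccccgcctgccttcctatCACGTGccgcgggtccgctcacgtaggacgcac
The E-box began 112 bases before the start site of Rragc, 75 before that of Fnip1 and 68 before that of Lamtor1, and Rragb held it 3 times, at 127, 36 and 3 bases before its start. All 10 genes matched a RefSeq promoter, in 13 windows of 250 bases before to 50 after a start site, and 4 of the 13 windows held CACGTG, which reads the same on both strands. Over all 32851 RefSeq windows of that length the share was 7.15%. No window of Rragd, Flcn or Fnip2, named above as known targets, held CACGTG. The FOXO motif TGTTTAC, searched on both strands (GTAAACA on the other), was in 0 of the 13 windows and in 3.65% of all windows. A match says only that the letters are in the window.

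The library names carried numbers of 2 kinds, and the libraries divided along them. FOXO3 KO 05, 06 and 09 and WT 03 and 08 form the second series, and FOXO3 KO 1 to 3 and WT 1 to 3 the first. What a number stands for is not given in the labels or the methods. Neutrophil markers (S100a8, S100a9, Retnlg, Ly6g, Csf3r, Cxcr2, Mmp8 and Camp) summed to 102122 to 183047 TPM in FOXO3 KO and 124468 to 254450 TPM in WT libraries, so the labelled cell type was present in all 11. B cell markers summed to 389 to 1640 TPM in the second series, highest in FOXO3 KO 05 and then FOXO3 KO 06, and to 13.8 to 86.3 TPM in the first, and all 5 of them, all 4 T cell markers and all 4 intestinal epithelial markers were higher in every library of the second series. FOXO3 KO 3, FOXO3 KO 09, WT 03 and WT 08 carried 42.9, 18.0, 20.2 and 18.3 TPM of the Y-linked gene Ddx3y, and the other 7 libraries were close to 0. In the second series both WT libraries and FOXO3 KO 09 thus carried it, and in the first FOXO3 KO 3 alone did, so genotype and sex were partly confounded in both series. FOXO3 KO 3 also held 4.29 TPM of Xist, an RNA of female cells, against 0.00603, 0.115 and 0.0447 TPM in FOXO3 KO 09, WT 03 and WT 08. The other 7 libraries had 27.7 to 84.0 TPM of Xist. Why FOXO3 KO 3 carried both markers was not tested.

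Rragd encodes one of the 2 alternative partners of RagA and RagB (chromosome 4 of GRCm38, 32983037 to 33022180, plus strand) and was a low transcript in PMNs. Its level was 5.85, 4.06, 4.20, 4.10, 3.18 and 7.61 TPM in FOXO3 KO libraries 1, 2, 3, 05, 06 and 09, against 3.57, 2.40, 1.75, 1.75 and 1.80 TPM in WT libraries 1, 2, 3, 03 and 08. FOXO3 KO 09 was highest and FOXO3 KO 06 lowest of the knock-outs, and the groups overlapped only through WT 1, which exceeded FOXO3 KO 06. The mean was 4.83 ± 1.61 TPM (SD, n = 6) in FOXO3 KO and 2.25 ± 0.79 TPM (SD, n = 5) in WT PMNs, a ratio of 2.14. On the log2(TPM + 1) scale, which shrinks the change of low genes, the fold change was 0.83 (SE 0.23), with 1.03 (SE 0.39) in the second series and 0.69 (SE 0.26) in the first. Within each series every FOXO3 KO library was above every WT library, as for 10.3% of all genes tested in the first and 6.53% in the second. Rragd was selected on this contrast. Leaving out single libraries gave 0.71 to 0.96, and without FOXO3 KO 05 and 06, which had the most B cell marker RNA, the fold change was 0.98.

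**Figure D1:**
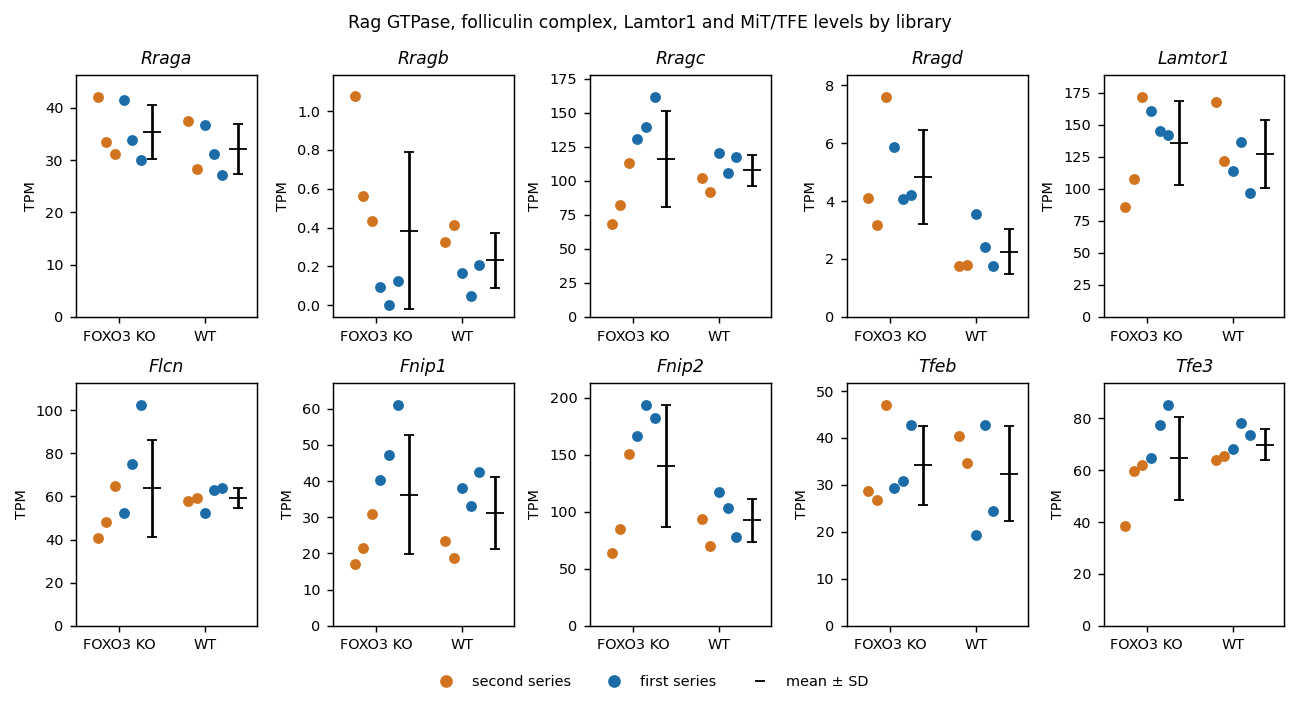
Level of each of the 10 genes in every library (y axes, TPM), FOXO3 KO on the left and WT on the right of each panel, with 1 point per library coloured by numbering series and bars for mean ± SD. The Rragd points lie at 3.18 to 7.61 TPM in FOXO3 KO and at 1.75 to 3.57 TPM in WT, and in the Fnip1 panel all second series points lie below all first series points.

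Rragc, the partner that takes the place of RagD (chromosome 4, 123917446 to 123936997, plus strand), was far more abundant and split by series. It had 131, 140, 162, 67.9, 82.3 and 113 TPM in FOXO3 KO 1, 2, 3, 05, 06 and 09, against 121, 106, 117, 102 and 92.0 TPM in WT 1, 2, 3, 03 and 08. In the first series every FOXO3 KO library exceeded every WT library, as for 10.3% of all genes tested. FOXO3 KO 05 and 06 were the lowest of all 11. The log2 fold change was 0.05 (SE 0.22) over all libraries, -0.17 (SE 0.28) in the second series and 0.32 (SE 0.15) in the first. Rragd made up 4.22 ± 1.52% (SD, n = 6) of the summed TPM of Rragc and Rragd in FOXO3 KO and 2.03 ± 0.55% (SD, n = 5) in WT PMNs. This share was 2.53% to 6.30% in FOXO3 KO and 1.47% to 2.87% in WT libraries, so RagC transcripts outnumbered RagD transcripts in every library. Part of the Rragc signal is uncertain, since 10.3% of its transcript stretches of 31 bases also occur in other genes, most of them in the opposite-strand gene 4930535I16Rik, which was listed at no more than 0.117 TPM, and whether the authors' quantification used strand is not stated.

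Rraga and Rragb encode the other side of the Rag pair. Rraga (chromosome 4, 86575668 to 86577285, plus strand) was the steadiest of the 10 genes, with 41.4, 33.9, 30.1, 42.2, 33.5 and 31.2 TPM in FOXO3 KO 1, 2, 3, 05, 06 and 09, against 36.7, 31.1, 27.1, 37.4 and 28.3 TPM in WT 1, 2, 3, 03 and 08. The highest and lowest of its 11 values differed 1.56-fold, and its log2 fold change was 0.13 (SE 0.15). Rragb, on the X chromosome (153139981 to 153171943, plus strand), was near the limit of detection, with 0.0923, 0, 0.127, 1.08, 0.562 and 0.434 TPM in FOXO3 KO 1, 2, 3, 05, 06 and 09, against 0.167, 0.0501, 0.207, 0.325 and 0.415 TPM in WT 1, 2, 3, 03 and 08. All 5 libraries of the second series, at 0.563 ± 0.301 TPM (SD, n = 5), lay above all 6 of the first, at 0.107 ± 0.076 TPM (SD, n = 6). The share of all genes that separate in this way was not computed. Rragb fell under the minimum level, and in a fit of 32209 genes with no such minimum its log2 difference between the series was 0.47 (limma FDR = 0.028), and 3.99% of those genes were higher in the second series at FDR < 0.05. It held 1.03 ± 0.97% (SD, n = 6) of the summed TPM of Rraga and Rragb in FOXO3 KO and 0.73 ± 0.48% (SD, n = 5) in WT PMNs, so nearly all transcripts of the pair were Rraga.

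Lamtor1, the membrane anchor of Ragulator (chromosome 7, 101905904 to 101926675, plus strand), was the most abundant of the 10 on average. It had 161, 145, 142, 85.6, 108 and 172 TPM in FOXO3 KO 1, 2, 3, 05, 06 and 09, against 114, 136, 97.0, 168 and 122 TPM in WT 1, 2, 3, 03 and 08. The genotypes did not overlap in the first series, where FOXO3 KO was higher, as for 10.3% of all genes tested. FOXO3 KO 05 was the lowest of all libraries. The log2 fold change was 0.07 (SE 0.21) over all libraries, -0.29 (SE 0.36) in the second series and 0.38 (SE 0.17) in the first. Of the 31-base stretches of its transcripts, 23.2% also occur in Gm5510 or Gm13077, which were listed at no more than 0.209 and 0.131 TPM, and Tomt and Lrrc51 lie across it on the opposite strand.

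Fnip2 and Fnip1 encode the alternative partners of folliculin. Fnip2 (chromosome 3, 79455974 to 79567796, minus strand) had 166, 193, 182, 63.7, 84.7 and 151 TPM in FOXO3 KO 1, 2, 3, 05, 06 and 09, against 117, 103, 77.9, 93.1 and 70.0 TPM in WT 1, 2, 3, 03 and 08. FOXO3 KO 1, 2, 3 and 09 stood above all 5 WT libraries, and FOXO3 KO 05 was the lowest of the 11. Its log2 fold change was 0.51 (SE 0.29), the next after Rragd, with 0.21 (SE 0.41) in the second series and 0.87 (SE 0.19) in the first, where the ratio of means was 1.82. Without FOXO3 KO 05 and 06 it was 0.92, and with all libraries and the series as a covariate 0.58. The values with and without FOXO3 KO 05 and 06 differ by over 1.5 times. The part that B cell RNA, or the changed balance of the series, has in them was not tested.

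Fnip1 (chromosome 11, 54438199 to 54518235, plus strand) had 40.3, 47.2, 61.0, 17.0, 21.5 and 30.8 TPM in FOXO3 KO 1, 2, 3, 05, 06 and 09, against 38.2, 33.1, 42.5, 23.4 and 18.6 TPM in WT 1, 2, 3, 03 and 08. The genotypes overlapped in both series, with a log2 fold change of 0.15 (SE 0.33) over all libraries and 0.25 with the series as a covariate. Without FOXO3 KO 05 and 06 it was 0.53, in a fit with no series term and a changed balance of the series between genotypes. Fnip2 made up 79.6 ± 2.69% (SD, n = 6) of the summed TPM of the pair in FOXO3 KO and 74.9 ± 6.05% (SD, n = 5) in WT PMNs. Flcn, the folliculin gene itself (chromosome 11, 59791408 to 59810016, minus strand), had 52.4, 75.0, 102, 40.7, 47.9 and 65.0 TPM in FOXO3 KO 1, 2, 3, 05, 06 and 09, against 52.3, 63.1, 63.7, 57.9 and 59.3 TPM in WT 1, 2, 3, 03 and 08. The WT libraries lay within the spread of the knock-outs, and the log2 fold change of 0.04 (SE 0.22) turned to -0.02 under quantile normalization.

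Tfeb and Tfe3 are the transcription factors at the end of the pathway. Tfeb (chromosome 17, 47737030 to 47792419, plus strand) had 29.3, 30.9, 42.7, 28.7, 26.8 and 47.0 TPM in FOXO3 KO 1, 2, 3, 05, 06 and 09, against 19.3, 42.8, 24.5, 40.5 and 34.7 TPM in WT 1, 2, 3, 03 and 08. High and low values occurred in both genotypes, and the log2 fold change was 0.11 (SE 0.24). Tfe3, on the X chromosome (7762560 to 7775202, plus strand), was the one gene of the 9 with a negative log2 fold change over all libraries, -0.15 (SE 0.19). It had 64.9, 77.5, 85.1, 38.6, 59.8 and 62.0 TPM in FOXO3 KO 1, 2, 3, 05, 06 and 09, against 68.4, 78.1, 73.6, 64.0 and 65.5 TPM in WT 1, 2, 3, 03 and 08. In the second series all 3 FOXO3 KO libraries were below both WT libraries, as for 3.65% of all genes tested. Without FOXO3 KO 05 and 06 the log2 fold change of Tfe3 was 0.04, and with all libraries and the series as a covariate -0.11. Tfeb took 35.0 ± 6.34% (SD, n = 6) of the summed TPM of Tfeb and Tfe3 in FOXO3 KO and 31.2 ± 7.21% (SD, n = 5) in WT PMNs.

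**Figure D2:**
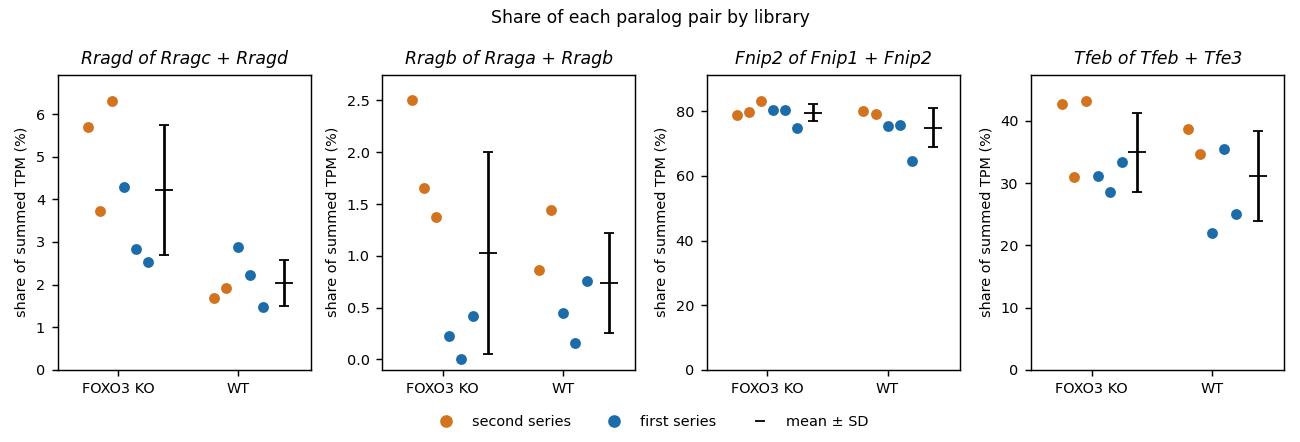
Share of summed TPM (y axes, percent) taken by Rragd, Rragb, Fnip2 and Tfeb within its paralog pair, with 1 point per library, FOXO3 KO left of WT, coloured by numbering series, and bars for mean ± SD. The Rragd share averages 4.22% in FOXO3 KO and 2.03% in WT, Rragb stays at or below 2.50% in every library, and Fnip2 holds 64.7% or more of its pair.

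Taking the 9 genes that reached the minimum level together, 8 had a positive log2 fold change over all 11 libraries, 4 in the second series and 9 in the first. With single libraries left out 5 (without FOXO3 KO 3) to 8 were positive. Rragc turned negative without FOXO3 KO 2, FOXO3 KO 3 or WT 08, Flcn without FOXO3 KO 2, FOXO3 KO 3 or WT 1, Fnip1 without FOXO3 KO 3 or WT 08, Lamtor1 without FOXO3 KO 09 or WT 3 and Tfeb without WT 1, the lowest of these values being -0.10 for Flcn without FOXO3 KO 3. Over all 12195 genes tested the median was 0.11, with 0.04 in the second series and 0.20 in the first. Of these genes 8363 were positive over all libraries, 6627 in the second series and 9336 in the first. The median of the 9 genes was 0.11 over all libraries, -0.17 in the second series and 0.32 in the first. Quantile normalization, which brought the median of all genes to 0.01, left 7 of the 9 positive, Rragd at 0.69 and Fnip2 at 0.47. Of all 12195 genes 6309 were positive under it. Over all 11 libraries the genotypes overlapped for each of the 9, and of all genes 0.082% had every FOXO3 KO library above every WT library and 0.0492% every one below. In the first series Rragc, Rragd, Fnip2 and Lamtor1 were higher in every FOXO3 KO library (4 of 9, background 10.3%) and 0 of 9 were lower (background 1.19%). In the second series Rragd was higher (1 of 9, background 6.53%) and Tfe3 lower (1 of 9, background 3.65%). Since the genotype contrast was used to select the set, nothing is read from these counts.

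**Figure D3:**
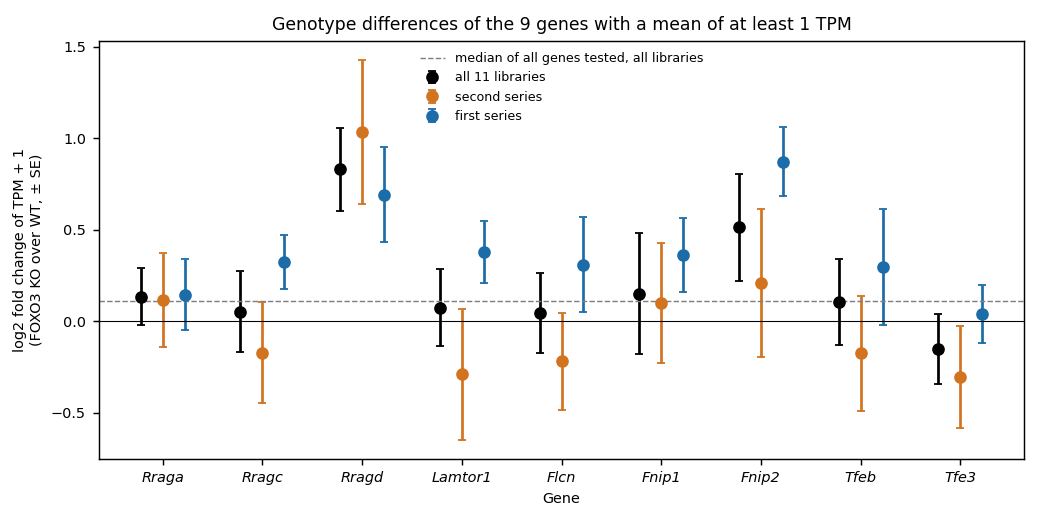
Log2 fold change of TPM + 1, FOXO3 KO over WT (y axis, ± SE), for the 9 genes that reached the minimum level (x axis), over all 11 libraries, in the second series and in the first. Rragd is positive in all of them (0.83, 1.03 and 0.69), Fnip2 is at 0.51, 0.21 and 0.87, and 5 of the other 7 genes are negative in the second series and positive in the first. The dashed line marks the median of all genes tested, 0.11.

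The numbering series was not used to select the genes, and the level of each gene was compared between series with genotype as a covariate (limma on log2(TPM + 1), Benjamini-Hochberg adjustment over 12195 genes). Fnip1 was lower in the second series, at 22.3 ± 5.38 TPM (SD, n = 5) against 43.7 ± 9.67 TPM (SD, n = 6) in the first, with a log2 difference of -0.97 (SE 0.18, limma FDR = 0.0037). All 5 libraries of the second series were below all 6 of the first, and the share of all genes that separate in this way was not computed. The call on Fnip1 held without each library in turn and without FOXO3 KO 05 and 06 (limma FDR = 0.032). Rragc was also lower, at 91.5 ± 17.5 TPM (SD, n = 5) in the second series and 129 ± 19.7 TPM (SD, n = 6) in the first, with a log2 difference of -0.51 (SE 0.16, limma FDR = 0.046). That call was lost in 13 alternatives (limma FDR = 0.052 to 0.26), among them leaving out each library except FOXO3 KO 09 and WT 03. Without FOXO3 KO 05 and 06 the log2 difference of Rragc was -0.28. Fnip2 (-0.64, limma FDR = 0.070), Tfe3 (-0.37, limma FDR = 0.12) and Flcn (-0.31, limma FDR = 0.29) were lower by value and did not pass, and Rraga, Rragd, Lamtor1 and Tfeb differed by 0.18 or less in size (limma FDR = 0.61 or more).

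In all, 2 of the 9 genes were lower in the second series and 0 higher at FDR < 0.05, against 12.3% and 8.36% of all genes tested, with a median log2 difference over all genes of -0.15. With Xist, the RNA that silences 1 X chromosome in females, added as a covariate for sex, Rragc, Fnip1, Fnip2, Flcn and Tfe3 were lower in the second series at FDR < 0.05 and 0 of the 9 were higher (5 of 9 lower, against 12.5% lower and 10% higher of all genes in that fit). B cell, T cell and intestinal epithelial markers were higher in the second series, as given above, while 1 of 8 neutrophil markers, Csf3r, and 1 of 6 macrophage markers, Mertk, were lower in every one of its libraries. The libraries of the second series listed 21138 to 22120 genes above 0 TPM and those of the first 23562 to 24228. RNA of these markers and the number of genes detected thus moved with the series, and fewer cells of a type cannot be told apart from less RNA per cell in such libraries. The part of these in the differences of Fnip1 and Rragc was not tested. Whether genotype differences over all genes depended on the series was tested with an interaction term, chosen after seeing the data. By that term 0% of all genes passed FDR < 0.05 in limma, with 254 of 12195 at an unadjusted p < 0.05. For the 9 genes the interaction ranged between -0.66 for Lamtor1 and 0.34 for Rragd on the log2 scale. These values are a description, since the genotype contrast was used to select the set. Whether the opposite signs of the series for 5 genes differ was therefore not tested.

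**Figure D4:**
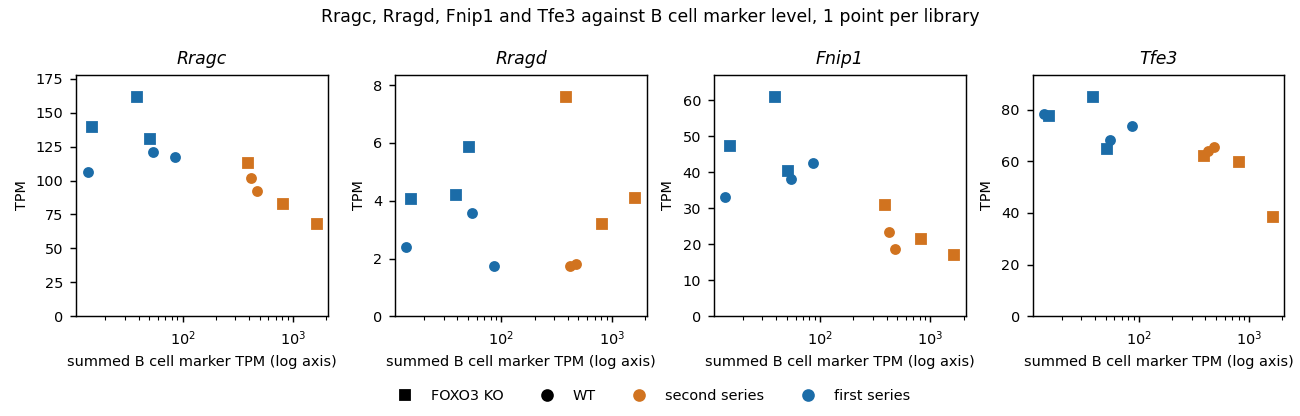
Level of Rragc, Rragd, Fnip1 and Tfe3 (y axes, TPM) against the summed TPM of 5 B cell markers (x axes, log scale), with 1 point per library, squares for FOXO3 KO and circles for WT, coloured by numbering series. FOXO3 KO 05, with the highest marker sum of 1640 TPM, has the lowest Rragc (67.9 TPM), Fnip1 (17.0 TPM) and Tfe3 (38.6 TPM), while its Rragd (4.10 TPM) lies above all 5 WT libraries.

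Since TPM is scaled by transcript length, the 10 genes can also be ordered by level. Averaged over the 11 libraries the order was Lamtor1 at 132 ± 29.0 TPM, Fnip2 at 118 ± 46.8, Rragc at 112 ± 26.6, Tfe3 at 67.0 ± 12.3, Flcn at 61.8 ± 16.3, Fnip1 at 34.0 ± 13.6, Rraga at 33.9 ± 5.02, Tfeb at 33.4 ± 8.81, Rragd at 3.66 ± 1.83 and Rragb at 0.315 ± 0.310 (SD, n = 11). Neighbours in this order were compared within libraries by a two-sided exact permutation test of sign flips, adjusted over the 9 pairs. Of the 9 steps 4 passed, Rragc over Tfe3, Flcn over Fnip1, Tfeb over Rragd and Rragd over Rragb, each in 11 of 11 libraries (exact permutation p = 0.000977, the smallest that 11 libraries allow, FDR = 0.0022). The steps were 0.72, 0.91, 2.93 and 1.76 on the log2(TPM + 1) scale. The other 5 pairs of neighbours did not pass (exact permutation FDR = 0.11 to 0.91), namely Lamtor1 and Fnip2, Fnip2 and Rragc, Tfe3 and Flcn, Fnip1 and Rraga, and Rraga and Tfeb. In the first series alone 0 pairs passed, where the smallest possible exact permutation p of 0.031 became 0.070 after adjustment. Rragd ranked 9th and Rragb 10th in every library.

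The genes with the profile most like that of Rragd were sought among the 8092 genes that averaged 5 TPM or more, by Pearson correlation of log2(TPM + 1) over the 11 libraries after the mean of each numbering series was subtracted. Mir146 (r = 0.95), D630024D03Rik (0.90), Gm13571 (0.90), Gm31814 (0.89) and Sfi1 (0.88) came first. Mir146, the gene of an anti-inflammatory microRNA, had 161, 69.9, 68.5, 69.2, 120 and 284 TPM in FOXO3 KO 1, 2, 3, 05, 06 and 09, against 54.5, 42.8, 19.9, 27.4 and 27.7 TPM in WT 1, 2, 3, 03 and 08. As with Rragd, FOXO3 KO 09 and then FOXO3 KO 1 were the highest. Of the other members that averaged 5 TPM or more, Fnip2 was nearest (r = 0.72, place 93), followed by Fnip1 (0.44), Rraga (0.39), Lamtor1 (0.33), Rragc (0.32), Tfeb (0.15), Flcn (0.02) and Tfe3 (-0.28). These correlations contain the genotype difference for which Rragd was selected, their points share libraries of unknown depth, and they are given as a description.

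The rest of the pathway was described with 9 lists of 82 genes, of which 75 were tested. None of these passed FDR < 0.05 by genotype in limma, as was so for 0% of all genes. Foxo3 itself, the deleted gene, did not pass either (log2 fold change -1.65, SE 0.26, limma FDR = 0.49, the smallest of all genes tested). A gene that did not pass is therefore not shown to be unchanged. At an unadjusted p < 0.05, 1 of the 75 genes was higher in FOXO3 KO PMNs, against 1.56% of all genes, and 0 were lower, against 0.549%. The gene was Sesn1, a sestrin, which holds back mTORC1 signaling through GATOR2. It had 6.79, 7.48, 3.04, 9.10, 6.19 and 6.27 TPM in FOXO3 KO 1, 2, 3, 05, 06 and 09, against 2.65, 2.73, 2.51, 7.10 and 4.04 TPM in WT 1, 2, 3, 03 and 08 (log2 fold change 0.67, SE 0.28, limma FDR = 0.99). WT 03 stood among the knock-outs, and in the first series every FOXO3 KO library was above every WT library, as for 10.3% of all genes. That call on Sesn1 was lost without FOXO3 KO 1, 2, 05, 06 or 09 or WT 1, 2 or 3 (8 of 11 libraries, log2 fold change 0.57 to 0.87 over the 11 fits). It was also lost in the second series alone (0.34), at a mean of at least 5 TPM and under quantile normalization. Under quantile normalization the 1 gene called higher was Clcn7, a lysosomal chloride transporter gene, and the 1 called lower was Castor2 (-0.37). With the numbering series as a covariate 2 of the 75 genes were higher, Sesn1 (0.61) and Clcn7 (0.47), against 2.96% of all genes. Joining equal replicate numbers as blocks also takes out the series, since the libraries without a partner form 1 block, and it left these fold changes as they were. In that fit 3 of the 75 were higher, Sesn1, Clcn7 and Gpnmb (0.70), with limma FDR = 0.75 for each, against 4.44% of all genes. Leaving out single libraries gave 0 (FOXO3 KO 1, 2, 06 or 09, WT 2 or 3), 2 (FOXO3 KO 3 or 05), 3 (WT 1), 1 (WT 08) and 7 genes (WT 03), with Sesn1 among them only without FOXO3 KO 3, WT 03 or WT 08. Without WT 03, 4.98% of all genes were higher by this threshold. Leaving out any other single library gave 78 (WT 2) to 343 (WT 1) of 12195 genes. Over all genes 190 were called higher and 67 lower by this threshold, and 121 higher and 165 lower under quantile normalization.

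In the lists upstream of mTORC1, GATOR and KICSTOR genes, which encode the complexes that set the state of RagA and RagB by amino acid supply, had a median log2 fold change of 0.23 over 10 genes, all positive, against 0.11 over all genes tested. Under quantile normalization 8 of the 10 were positive, with a median of 0.11, against 6309 of all 12195 genes tested and a median of 0.01. Kptn, a KICSTOR gene (0.31), and Nprl3, of the GATOR1 complex (0.44), did not pass (limma FDR = 0.99 for each). For mTORC1 and its Rheb-TSC arm 7 of 8 genes were positive with a median of 0.20. Mtor, the kinase, had 7.03 ± 0.61 TPM (SD, n = 6) in FOXO3 KO and 5.49 ± 2.07 TPM (SD, n = 5) in WT PMNs (0.36), and its partner Mlst8 (0.51) and the inhibitor Tsc1 (0.25) were also positive and did not pass. Among the genes of the amino acid sensor list 3 of 6 were positive (median 0.01), with Castor2 at -0.31. Sesn3, another sestrin, was at 0.50 over all libraries, 0.77 in the second series and 0.05 in the first. Its highest value, 8.15 TPM, was in FOXO3 KO 05, the library with the most B cell marker RNA, and its log2 fold change was 0.22 without that library and -0.01 without FOXO3 KO 05 and 06. Among the remaining Ragulator and scaffold genes 3 of 5 were positive (median 0.04), with Slc38a9, the lysosomal arginine transporter, at 0.22 (0.05 without WT 08), Lamtor5 at 0.16 and Lamtor4 at -0.06.

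Downstream, MiT/TFE (CLEAR) target genes, those of lysosomal enzymes, the proton pump and autophagy, had a median log2 fold change of 0.05 over 27 genes, 15 of them positive, which was below the median of all genes and was -0.06 without WT 08. The 3 with the smallest p were Clcn7, with 65.3 ± 12.2 TPM (SD, n = 6) in FOXO3 KO and 49.4 ± 17.6 TPM (SD, n = 5) in WT PMNs (0.44), the membrane glycoprotein gene Gpnmb, with 119 ± 52.8 TPM (SD, n = 6) in FOXO3 KO and 74.5 ± 41.3 TPM (SD, n = 5) in WT PMNs (0.74), and the proton pump subunit gene Atp6v0d2, with 13.1 ± 8.79 TPM (SD, n = 6) in FOXO3 KO and 7.28 ± 3.18 TPM (SD, n = 5) in WT PMNs (0.63). The direction of Atp6v0d2 turned between the series, with -0.13 in the second and 1.19 in the first. Its level was 23.4 and 25.1 TPM in FOXO3 KO 3 and 09, the knock-outs with Ddx3y. WT 03 and 08, the WT libraries with Ddx3y, had 10.4 and 10.96 TPM. The other FOXO3 KO libraries had 4.96 to 10.2 TPM, against 4.67, 4.29 and 6.07 TPM in WT 1, 2 and 3. Without FOXO3 KO 09 the log2 fold change of Atp6v0d2 was 0.41. With Xist as a covariate for sex it was 0.81 (limma FDR = 0.99). In that fit Atp6v0d2 and Sesn1 were the 2 pathway genes higher at an unadjusted p < 0.05, against 171 of all 12195 genes tested. Gpnmb is also abundant in macrophages, whose markers summed to 171 to 742 TPM in FOXO3 KO and 240 to 973 TPM in WT libraries, and the part of macrophage RNA in its values was not tested. In the second series the CLEAR list had a median of -0.13 with 9 of 27 genes positive, and in the first 0.24 with 23 of 27 positive. Of all 12195 genes tested 6627 were positive in the second series (median 0.04) and 9336 in the first (median 0.20). Genes that regulate where Tfeb sits in the cell had a median of 0.03 (4 of 6 positive), with Mcoln1, the lysosomal calcium channel, at 0.34, Xpo1, a nuclear exporter, at 0.21 and Map4k3, a kinase that holds Tfeb in the cytosol, at -0.12. The other MiT/TFE factors Mitf (-0.11) and Tfec (-0.15) were both negative. Leaving out 1 library turned the sign of Xpo1 (WT 08), Mitf (FOXO3 KO 05 or WT 03), Tfec (FOXO3 KO 05 or WT 1) and Lamtor4 (FOXO3 KO 05, FOXO3 KO 06, WT 1 or WT 03). Substrates of mTORC1 had a median of -0.03 (2 of 6 positive), with Larp1 at 0.31, Maf1 at -0.27 and the autophagy kinase gene Ulk1 at -0.25. AMPK subunits, of the energy-sensing kinase that opposes mTORC1, had the lowest median of the lists with 5 or more genes, -0.10 (1 of 5 positive), with Prkag1 at -0.22, Prkag2 at 0.22 and Prkab1 at -0.15. No gene of the 9 lists besides Sesn1 passed an unadjusted p < 0.05 over all 11 libraries in the fit by genotype alone.

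**Figure D5:**
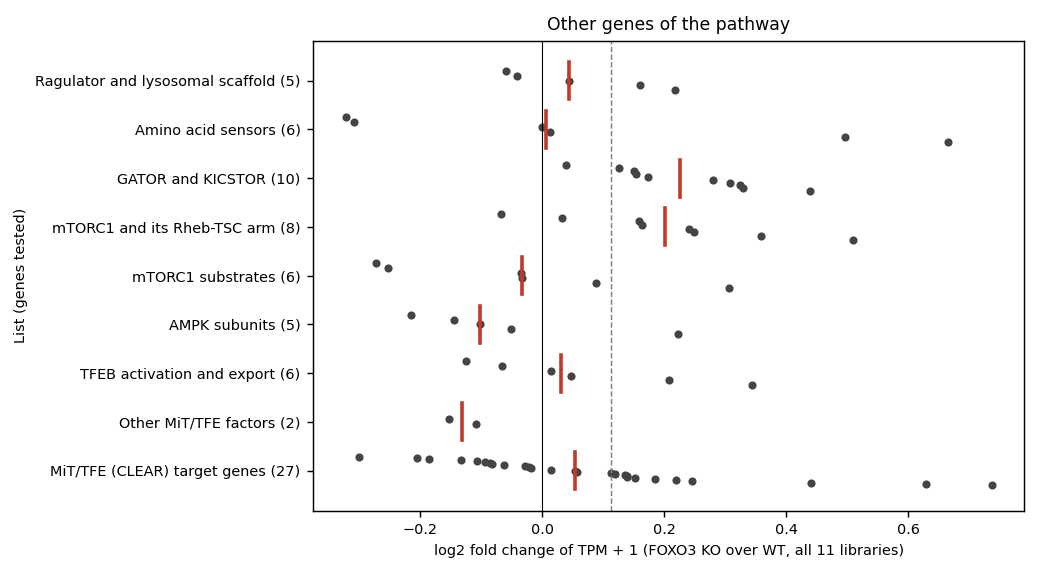
Log2 fold change of TPM + 1, FOXO3 KO over WT (x axis), of the 75 other pathway genes tested, 1 point per gene, grouped by list (y axis, number of genes tested in brackets), with a bar at each list's median. The dashed line is the median of all genes tested (0.11), and the medians of the GATOR and KICSTOR list (0.23) and of the mTORC1 list (0.20) lie to its right.

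Over all 75 genes 45 were positive, with a median of 0.05 against 0.11 for all genes tested, and 36 were positive under quantile normalization. Of all 12195 genes tested 8363 were positive, and 6309 under quantile normalization. By numbering series 13 of the 75 were lower and 1, Sesn3, was higher in the second at limma FDR < 0.05, against 12.3% lower and 8.36% higher of all genes. Map4k3 (-0.68, limma FDR = 0.021) and Tfec (-1.21, limma FDR = 0.013) were among the lower ones, and Sesn3 had 4.31 ± 2.30 TPM (SD, n = 5) in the second series and 1.02 ± 0.08 TPM (SD, n = 6) in the first (1.26, limma FDR = 0.0022). As with Fnip1, the markers of B cells, T cells and intestinal epithelium were higher in the second series, and their part in these differences was not tested.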

How the data were processed

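The authors quantified expression in TPM, deposited with 1 column per library for 54164 genes, and the columns sum to 935140 to 952238. A further column holds a mean normalized count for each gene over the libraries, a signal as deposited by the authors. It also holds the authors' own genotype comparison, a deposited log2 fold change, its standard error and test statistic (scores deposited by the authors) and p-values deposited by the authors, none of which was used. Tools named in the submitters' processing notes, without their roles, are kallisto 0.46.0, STAR 2.6.1d and DESeq2, beside the builds hg38 and mm10. Annotation and strand use are not given in the sources used here. No counts per library were given, so the depth of each library and its counting error are unknown, and count tests were not possible.

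Log2(TPM + 1) was fitted with limma 3.58.1 in R 4.3.3 (mean-variance trend, genotype only) for the 12195 genes that averaged 1 TPM or more, with Benjamini-Hochberg adjustment over all of them. The numbering series was tested in the same way with genotype as a covariate. Neighbouring levels were compared with sign flips in Python 3.11.15. Both procedures were checked on simulated data. The 10 genes, the 9 pathway lists and the tests were chosen with earlier results of these data known. Genes named are the 10 members, Foxo3, up to 3 genes per list with the smallest p by genotype and the 5 genes most like Rragd. A gene that this rule names is not reported here. Lars and Seh1l were not analysed here, and Deptor, Lpin1, Grb10, Prkaa2 and Ppargc1a were under 1 TPM. Alternatives were a pseudocount of 0.1, quantile normalization, no filter, a mean of at least 5 TPM, no trend, a replicate block, series or Xist as a covariate, each series alone and each library left out. Leaving out FOXO3 KO 05 and 06 together and the interaction term were chosen after seeing the data. The genotype fit without these libraries had no series term and left FOXO3 KO 09 as the only knock-out of the second series. Its fold changes therefore also carry a changed balance of the series between genotypes.

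Replicate numbers 1 to 3 occur in both genotypes. Deviations from the genotype mean correlated between equal numbers at 0.55, 0.60 and 0.48 across genes and between unlike numbers at -0.05 to 0.51 (FOXO3 KO 3 with WT 2). With means of the first series equal numbers gave 0.51, 0.17 and 0.41 and unlike numbers -0.42 to 0.09, so by a rule of 0.1 for every pair the numbers were taken to pair them. Deviations from such means balance out within a genotype, which pulls unlike numbers down where equal ones are high. By genotype means FOXO3 KO 3 was closer to WT 2 than to WT 3, so the pairing is uncertain. It was used in the replicate block alone, and the main fits and the sign flips treated the libraries as independent. What a number stands for is not stated. The other 5 columns were assigned to a genotype by name and not to single labelled mice. Gene coordinates (GRCm38, GENCODE M21) count from 1. Replicates are separate mice.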

Additional observations from a re-analysis of the deposited data

Results flagged for a closer look

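Of 92 groups of libraries checked, for the genes named and the paralog shares, 4 held a library set apart from the rest of its group by more than Dixon's 95% critical value, where chance flags about 1 group in 20. Slc38a9 had 1.95 TPM in WT 08, with 3.91 TPM the nearest of the other WT libraries. Map4k3 had 2.57 TPM in WT 08, with 5.35 TPM the nearest. Nprl3 had 9.22 TPM in FOXO3 KO 05, with 6.02 TPM the nearest of the other FOXO3 KO libraries. Gm13571 had 6.82 TPM in WT 1, with 2.91 TPM the nearest. None of the 10 genes followed here had such a library.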

How the results depend on the processing

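Depth per library is unknown, and adding 1 TPM shrinks the change of low genes such as Rragd and Rragb. The count of pathway genes at FDR < 0.05 by genotype was 0 under every alternative run. The count higher at an unadjusted p < 0.05, 1 as reported, was 2 with no filter, 0 at a mean of at least 5 TPM, 2 with the series or Xist as a covariate, 3 with the replicate block, which also takes out the series, 0 in the second series alone, 3 in the first, 3 without FOXO3 KO 05 and 06, and 0 to 7 with single libraries left out. Over all genes 483 of 32209 were higher by this threshold with no filter and 96 of 8092 at a mean of at least 5 TPM. Of 12195 genes 361 were higher with the series and 171 with Xist as a covariate, and 541 with the replicate block. The second series alone gave 135, the first 480, leaving out FOXO3 KO 05 and 06 306, and leaving out single libraries 78 to 607. The count lower was 1 under quantile normalization, where 165 of all 12195 genes were lower, and 0 otherwise. The count of members that differed between the series, 2 as reported, was 1 under quantile normalization, without the trend and without FOXO3 KO 05 and 06. It was 5 with Xist as a covariate (12.5% of all genes lower and 10% higher), and 1 to 3 with single libraries left out. For these series fits other than that with Xist no share of all genes is given, so nothing is read from their counts. Of the steps in level order, 4 as reported, 0 passed in the first series alone, where the smallest p could not reach the threshold, and 4 to 5 with single libraries left out, the added step being Tfe3 over Flcn without FOXO3 KO 3 (exact permutation FDR = 0.032). The causes were not tested. The replicate block changed no other call.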
